A study of Homo sapiens with 6 samples.

Results

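The core spliceosome components described here are 53 genes for the Sm proteins, the proteins of the U1, U2 and U4/U6.U5 small nuclear ribonucleoproteins (snRNPs), the LUC7-like proteins, the LSM ring, the PRPF19 complex and the exon junction complex. Their rows were found by gene symbol among the 61860 Ensembl genes of the deposited count table, and each of the 53 symbols matched 1 row. RNA was sequenced from 5637, an established human bladder cancer cell line grown in serum-containing medium, in 3 libraries labelled siNC (the control group) and 3 libraries labelled siYTHDC1. YTHDC1 encodes a nuclear reader of N6-methyladenosine that is known to work with splicing factors, so the comparison bears on how transcripts of the splicing machinery itself differ when YTHDC1 is targeted. The labels name a transfection, an infection and a plasmid, and do not say which reagent the cells received or whether the replicates were separate cultures, so the p-values reflect the spread among these 6 libraries alone, which may be technical. Both groups share the cell line and the culture conditions, and no untreated cells were analysed here.

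The spliceosome assembles anew on each intron. The U1 snRNP pairs with the 5′ splice site, SF1 and the U2AF heterodimer mark the branch point, the polypyrimidine tract and the 3′ splice site, and the U2 snRNP then replaces SF1 at the branch point. The U4/U6.U5 tri-snRNP joins, helicases rearrange it, and the PRPF19 complex stabilises the active form. A ring of Sm proteins holds the U1, U2, U4 and U5 RNAs, a ring of LSM proteins holds the end of U6 RNA, and the exon junction complex is left on the spliced mRNA, where it affects export, translation and decay.

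Total counts ran from 33223480 to 35607577 per library. YTHDC1 itself (ENSG00000083896, chr4:68310387-68350089 on hg38) was counted at 50, 786 and 55 under the siNC label (replicates 1 to 3) against 161, 18 and 14 under the siYTHDC1 label. Its call as lower (log2 fold change -2.20 ± 0.69, SE; edgeR adjusted p = 0.00864) rests on groups that overlap, with siNC replicate 2 and siYTHDC1 replicate 1 standing apart, so each direction given here is that of the label siYTHDC1 against the label siNC. All 8 epithelial markers were detected, with a summed level of 11450 to 11630 counts per 1000000 (CPM) in the siNC libraries and 6352 to 6471 CPM in the siYTHDC1 libraries. Of 6 fibroblast, 6 immune and 5 endothelial markers, 2 of each list had a mean of at least 1 CPM. In the fibroblast list these were COL1A1, with a mean of 79.0 CPM in the siNC and 90.0 CPM in the siYTHDC1 libraries, and PDGFRB (3.2 and 3.7 CPM). DCN of that list and CD3E of the immune list were at 0 in every library. The lower epithelial sum came from the 6 keratins, since CDH1 went from 241.4 to 239.8 CPM and EPCAM from 181.2 to 200.3 CPM. It moved with the groups in every comparison given here, and its part in the results was not tested.

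Most core spliceosome genes were slightly lower in the siYTHDC1 libraries, and a few were higher. Of the 53 genes, 51 passed the filter on low counts, and of these 31 fell and 8 rose (edgeR quasi-likelihood test, adjusted p under 0.05 over all 17372 genes tested), while 12 were not called. Over all genes tested 53.4% were called, 27.1% as lower and 26.3% as higher, against 60.8% lower and 15.7% higher among the 51. Abundant genes are called more often, and 49 of the 51 averaged 20 CPM or more, a level set after the values were seen, which 8375 of all genes tested reached. Of those 8375 genes 71.3% were called, 38.2% as lower and 33.1% as higher, while of the 49 core genes 63.3% fell and 16.3% rose. In bulk RNA, fewer cells carrying a transcript and less of it per cell cannot be told apart.

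The changes were small. The median log2 fold change was -0.16 over the 51 genes and -0.0004 over all genes tested, and the quartiles of the 51 were -0.26 and 0.06, where those of all genes were -0.28 and 0.32. Of the 39 calls, 22 were under 0.25 on the log2 scale, a share that was not computed for all genes. A change of at least 0.5 was called in 4 of the 51 genes, all of them falls. Such a change was called in 21.7% of all genes tested, 9.67% as lower and 12.1% as higher, and in 16.1% of the 8375 abundant genes, 7.63% as lower and 8.45% as higher, so the number of large falls is near the background and large rises were not called. The 4 were RBM8A of the exon junction complex, SF1 and U2AF2 of 3′ splice site recognition and SF3B4 of the U2 snRNP. In 41 of the 51 the groups did not overlap, 31 of them lower and 10 higher in the siYTHDC1 libraries. Groups did not overlap in 59.3% of all genes tested, 29.8% lower and 29.5% higher, and in 74.7% of the abundant genes, 40.0% lower and 34.8% higher. The 53 transcripts together made up 7012 ± 37.7 CPM in the siNC libraries and 6340 ± 29.2 CPM in the siYTHDC1 libraries (SD, n = 3 each), a difference of -9.58%.

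**Figure D1:**
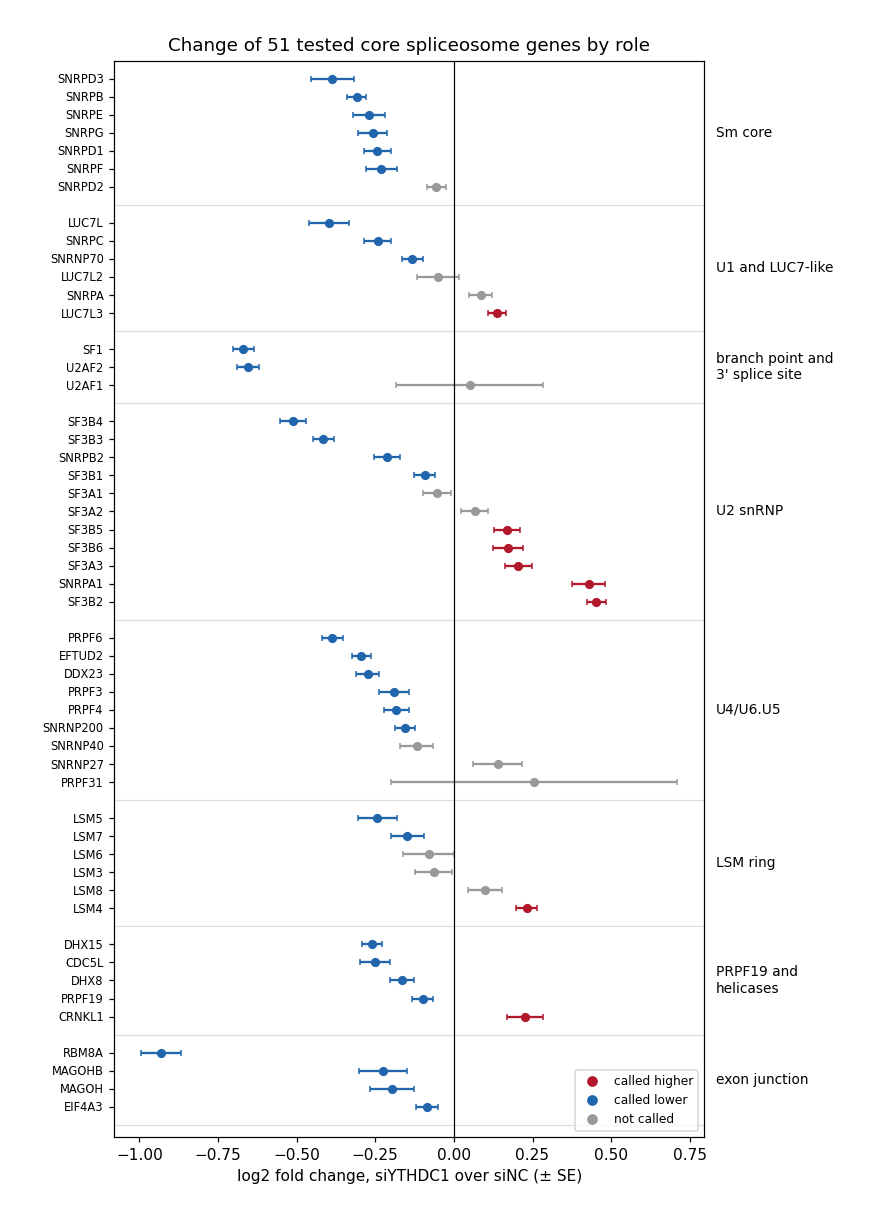
Log2 fold change of each of the 51 tested genes (x axis, siYTHDC1 over siNC, bars show the SE), grouped by role on the y axis and coloured by call. The Sm core, 3′ splice site recognition, the tri-snRNP and the exon junction complex hold no called rise. The U2 snRNP spreads from -0.51 for SF3B4 to 0.45 for SF3B2.

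**Figure D2:**
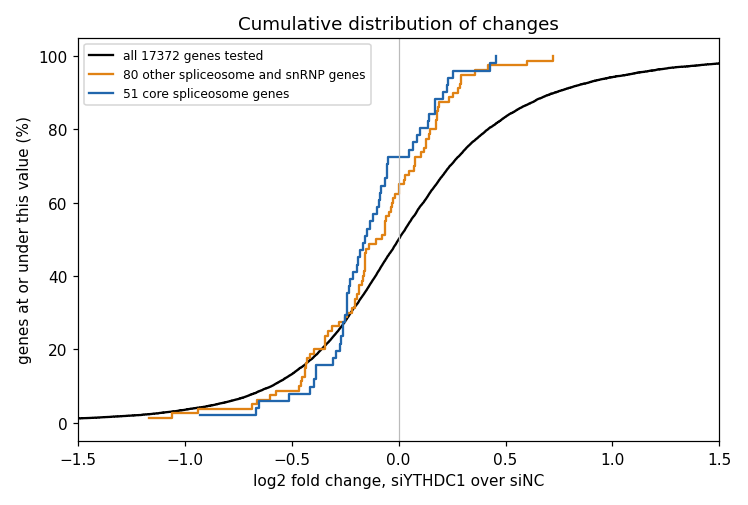
Cumulative share of genes (y axis, %) at or under each log2 fold change (x axis) for the core spliceosome genes, for 80 other spliceosome and snRNP genes and for all genes tested. The curve of the core genes is steeper than that of all genes, with quartiles of -0.26 and 0.06, and its median of -0.16 lies under that of all genes.

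Several short motifs were searched in promoters, and sequences are shown for 1 of them, which some members that fell and some that rose share. The motifs CCAAT and GGGCGG were also shared by fallen and risen members, and their windows are not shown. RefSeq starts (GRCh38.p14) were matched by symbol for 49 of the 53 genes, 1 start a gene. The ETS-type motif CCGGAAGT, searched on both strands in the 250 bases before the start, was present in 15 of the 49 (30.6%), in 3.64% of the promoters of all 27305 genes in the table and in 7.94% of those of the abundant genes. For promoters, the abundant genes are the 6850 matched by symbol to a gene with a mean of at least 20 CPM. It was present in 8 of the 28 fallen genes with a promoter, in 4 of the 8 risen genes and in 3 of the 13 others. The windows below come from part of the 15 genes. They are 30 bases long, read 5′ to 3′ on the strand of the gene, with the motif or its reverse complement in capitals. The first 6 belong to genes that fell and the last 3 to genes that rose.
RBM8A, chr1:145927587-145927616, minus strand: gccacagaaacACTTCCGGtatctttccgc
U2AF2, chr19:55654994-55655023, plus strand: gccggcggcggCCGGAAGTagccgaagcca
SF3B4, chr1:149927811-149927840, minus strand: ccgtcttcgccCCGGAAGTggaagtcgtgc
PRPF6, chr20:63981015-63981044, plus strand: cctagccgcggCCGGAAGTcgtcgaaccag
SNRPB, chr20:2470812-2470841, minus strand: agtgagctggaCCGGAAGTaggtttctacc
MAGOH, chr1:53238589-53238618, minus strand: gtcttgttgccACTTCCGGgcgaagaggtt
SF3B2, chr11:66052300-66052329, plus strand: atacggcgccaCCGGAAGTtccggcaagtg
SNRPA1, chr15:101295344-101295373, minus strand: cgcgcgccacgACTTCCGGcaagaacgccc
SF3A3, chr1:37990073-37990102, minus strand: agtcccggggcACTTCCGGcactcgcggaa
The motif began 121 bases before the RefSeq start in RBM8A, 30 in U2AF2, 26 in SF3B4 and 53 in SF3B2. In these genes the window lies inside the gene span printed in this report, which comes from GENCODE and begins further upstream. The E-box CACGTG was present in 6.12% of the 49, in 6.49% of all promoters and in 9.17% of those of the abundant genes. The GC box GGGCGG was present in 59.2% of the 49, more than the 42.3% of all promoters and less than the 71.5% of those of the abundant genes. The TATA-type motif TATAAA was present in 2.04% of the 49, 11.1% of all and 4.61% of the abundant genes. A match describes the letters in a window and does not show binding.

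The exon junction complex held the largest change of the whole group, in RBM8A (ENSG00000265241, chr1:145917714-145927678), which encodes Y14, the partner of MAGOH in the core of the complex. RBM8A had 45.2, 47.4 and 49.4 CPM in siNC replicates 1 to 3 and 23.9, 24.8 and 25.8 CPM in siYTHDC1 replicates 1 to 3. All 3 siYTHDC1 libraries thus lay far under the siNC range, and the level fell from 47.3 ± 2.13 to 24.8 ± 0.907 CPM (± SD of 3 libraries a group; log2 fold change -0.93 ± 0.06, SE; edgeR adjusted p = 9.88e-13). Of the exonic bases of RBM8A 26.9% lie under exons of other genes, 1.84% on the same strand, and the sources used here do not state whether the counting used the strand.

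The partners of RBM8A had smaller differences, and each of their calls was lost in some settings. MAGOH (ENSG00000162385, chr1:53226892-53238610), which binds Y14 directly, had 37.5, 37.7 and 37.4 CPM in the siNC libraries and 35.7, 33.9 and 28.6 CPM in the siYTHDC1 libraries. Its call (log2 fold change -0.20 ± 0.07, SE; edgeR adjusted p = 0.0209) was lost without siYTHDC1 replicate 3, the lowest library (-0.11; edgeR adjusted p = 0.176). MAGOHB (ENSG00000111196, chr12:10604190-10613623), which encodes a near-identical copy of MAGOH, had 24.9, 27.4 and 24.2 CPM against 23.0, 21.0 and 21.4 CPM. It fell by 0.23 on the log2 scale with groups that did not overlap (edgeR adjusted p = 0.0143), and this call was lost without siNC replicate 2 (-0.17; edgeR adjusted p = 0.0972), without siYTHDC1 replicate 2 (-0.20; edgeR adjusted p = 0.0622) and without siNC replicate 2 and siYTHDC1 replicate 1 together (-0.21; edgeR adjusted p = 0.0623). None of the 75-base words of MAGOH and 0.482% of those of MAGOHB recur in other genes, so the counts of this near-identical pair share little sequence at that length.

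EIF4A3 (ENSG00000141543, chr17:80135214-80147183), the helicase that clamps the complex onto RNA, had 266.6, 249.9 and 266.6 CPM in the siNC libraries and 256.7, 248.8 and 232.5 CPM in the siYTHDC1 libraries. The groups overlapped, and the difference (log2 -0.09 ± 0.04, SE) stood just past the threshold (edgeR adjusted p = 0.0459). This call was lost in 9 of 15 other settings, among them DESeq2 and each other scaling, and its highest adjusted p was 0.203 by edgeR without siYTHDC1 replicate 3 (-0.05). The ratio of RBM8A to MAGOH transcripts, a pair chosen after their values were seen, went from 1.26 ± 0.0584 to 0.768 ± 0.120, and that of RBM8A to EIF4A3 from 0.182 ± 0.0107 to 0.101 ± 0.00885 (SD, n = 3 each). These are ratios of CPM, which depend on transcript length, so only their difference between groups can be read.

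Recognition of the branch point and the 3′ splice site showed a shared fall of SF1 and U2AF2. SF1 (ENSG00000168066, chr11:64764606-64778786), which binds the branch point, had 267.9, 268.9 and 275.4 CPM in the siNC libraries and 162.7, 170.5 and 177.7 CPM in the siYTHDC1 libraries. U2AF2 (ENSG00000063244, chr19:55654146-55674715), the large U2AF subunit that binds the polypyrimidine tract and also contacts SF1, had 285.4, 286.5 and 291.9 CPM against 189.7, 188.1 and 170.8 CPM. Both were well under the siNC range in all 3 siYTHDC1 libraries, and they fell by nearly the same amount.

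SF1 went from 270.7 ± 4.06 to 170.3 ± 7.48 CPM (± SD of 3 libraries a group; log2 fold change -0.67 ± 0.03, SE; edgeR adjusted p = 2.4e-15), and U2AF2 from 287.9 ± 3.51 to 182.9 ± 10.5 CPM (± SD of 3 libraries a group; -0.65 ± 0.04, SE; edgeR adjusted p = 9.79e-15). Their ratio, again chosen after the values were seen, was 1.06 ± 0.00301 and 1.08 ± 0.105 in the siNC and siYTHDC1 libraries (SD, n = 3 each). None of the exonic bases of SF1 and 2.75% of those of U2AF2 lie under other genes. U2AF1 (ENSG00000160201, chr21:43092956-43107587), the small subunit that reads the 3′ splice site itself, could not be judged: 91.8% of its 75-base words recur in other genes, nearly all in the copy U2AF1L5. It held 81, 82 and 80 counts under siNC against 102, 78 and 67 under siYTHDC1, with overlapping groups (log2 fold change 0.05 ± 0.23, SE; edgeR adjusted p = 0.878). Per 1000 bases of transcript its siNC level was 2.35 ± 0.0486 CPM, against 169.6 ± 2.07 CPM for its partner U2AF2 (SD, n = 3 each).

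The U2 snRNP, which holds the branch point, held both rises and falls. Of its 11 genes 5 rose and 4 fell, with a median log2 fold change of 0.07, and 5 of the 8 rises of the whole group were here. For comparison, 33.1% of the abundant genes rose and 38.2% fell, and 26.3% and 27.1% of all genes tested. SF3B2 (ENSG00000087365, chr11:66050729-66069308), a subunit of the SF3B complex that contacts RNA next to the branch point, had 235.1, 236.9 and 232.5 CPM in the siNC libraries and 317.5, 323.6 and 323.6 CPM in the siYTHDC1 libraries. SF3B4 (ENSG00000143368, chr1:149923317-149928344), which binds SF3B2, had 170.5, 170.5 and 164.5 CPM against 116.3, 112.0 and 126.4 CPM. Each gene had no overlap between its groups, and the partners moved in opposite directions.

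SF3B2 rose by 0.45 ± 0.03 on the log2 scale (SE; edgeR adjusted p = 3.13e-13) and SF3B4 fell by 0.51 (edgeR adjusted p = 2.22e-11). The ratio of SF3B2 to SF3B4 was 1.38, 1.39 and 1.41 under siNC against 2.73, 2.89 and 2.56 under siYTHDC1, a 1.95-fold change in a pair chosen after the values were seen. SF3B3, a large scaffold of the complex, fell from 264.7 ± 5.58 to 198.6 ± 9.34 CPM (± SD of 3 libraries a group; log2 fold change -0.41 ± 0.03, SE). SF3B5 and SF3B6, small subunits of the same complex, rose by 0.17 each.

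SF3B1 (ENSG00000115524, chr2:197389784-197435091), the subunit that clamps the branch point helix and is recurrently mutated in cancers, had 215.6, 220.5 and 218.5 CPM in the siNC libraries and 198.4, 199.5 and 215.7 CPM in the siYTHDC1 libraries. The third siYTHDC1 library lay inside the siNC range. The difference (log2 -0.09 ± 0.03, SE; edgeR adjusted p = 0.0246) lost its call in 5 of 15 other settings. These were the fits without siNC replicate 2 or 3, without siYTHDC1 replicate 1 or 2 and without siNC replicate 2 and siYTHDC1 replicate 1 together (edgeR adjusted p from 0.0584 to 0.245).

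The U2-specific pair SNRPA1 and SNRPB2 encodes proteins that bind a stem-loop of U2 RNA as a dimer, and its transcripts also went apart. SNRPA1 had 66.5, 58.6 and 61.2 CPM in the siNC libraries and 87.6, 77.4 and 85.8 CPM in the siYTHDC1 libraries, whereas SNRPB2 had 100.6, 93.3 and 96.9 CPM against 82.7, 84.7 and 83.5 CPM. Thus SNRPA1 rose (log2 fold change 0.43 ± 0.05, SE; edgeR adjusted p = 1.01e-07) and SNRPB2 fell (-0.21 ± 0.04, SE; edgeR adjusted p = 0.000102), with no overlap between the groups of either. Of the words of SNRPA1 6.81% recur in other genes. In the SF3A complex, which joins U2 snRNP to the pre-mRNA, SF3A3 rose by 0.21, while SF3A1 and SF3A2 had log2 fold changes of -0.05 and 0.07 and were not called (edgeR adjusted p = 0.331 and 0.199). SF3A2 depended on single libraries, with 0.12 without siYTHDC1 replicate 3 (edgeR adjusted p = 0.00882), where it passed, and 0.02 without siYTHDC1 replicate 2 (edgeR adjusted p = 0.696).

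Rises and falls balanced in the sum of the U2 genes, 1538 ± 6.55 CPM in the siNC libraries and 1543 ± 29.8 CPM in the siYTHDC1 libraries (SD, n = 3 each), a difference inside the spread of the siYTHDC1 libraries.

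**Figure D3:**
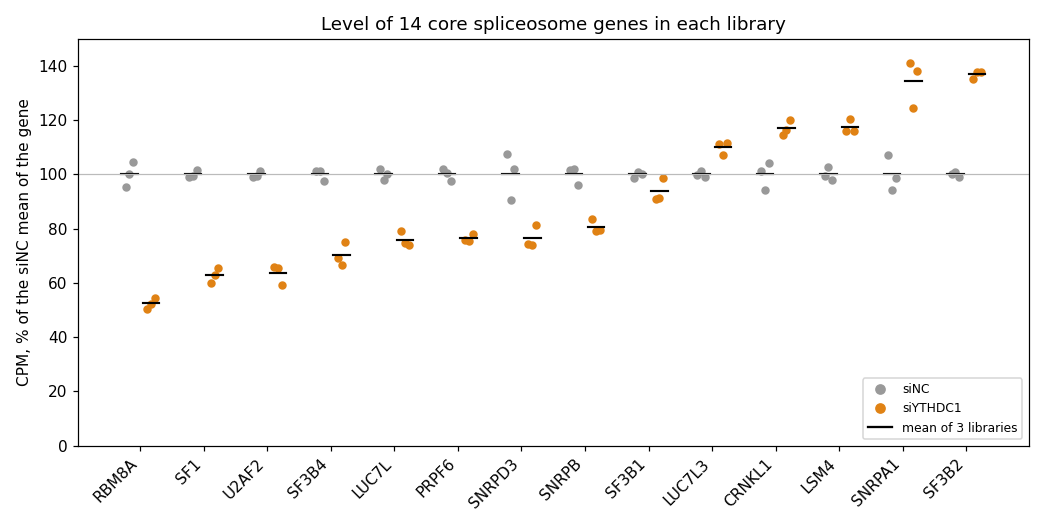
Level of 14 core genes in each library (y axis, CPM as % of the siNC mean of that gene), with siNC in grey, siYTHDC1 in orange and bars at the mean of 3 libraries. The siYTHDC1 means of RBM8A, SF1, U2AF2 and SF3B4 lie lowest and those of SF3B2 and SNRPA1 highest. The highest SF3B4 point reaches those of LUC7L and SNRPD3, and the siYTHDC1 points of SF3B1 reach the siNC points.

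**Figure D4:**
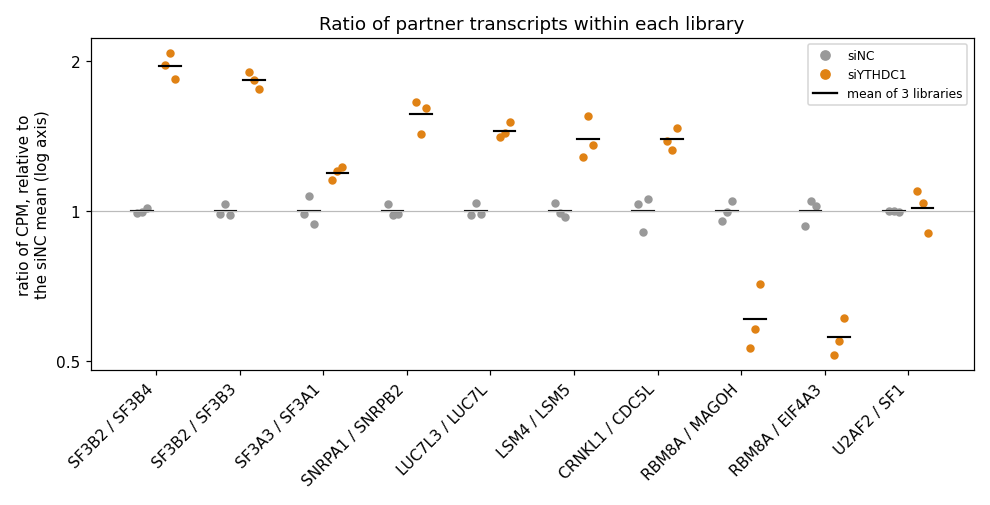
Ratio of CPM between partner transcripts in each library (y axis, log axis, relative to the siNC mean ratio), for 10 pairs chosen after their values were seen. The ratio of SF3B2 to SF3B4 differs 1.95-fold between the groups, those of RBM8A to its partners lie under 1, and that of U2AF2 to SF1 stays around 1.

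The Sm core fell nearly as a whole. Of its 7 genes 6 fell and 0 rose, by 0.23 to 0.39 on the log2 scale, and in all 7 the siYTHDC1 libraries lay under every siNC library. Among the abundant genes 38.2% fell, and in 40.0% every siYTHDC1 library lay under every siNC library. Over all genes tested these shares were 27.1% and 29.8%. SNRPB (ENSG00000125835, chr20:2461634-2470853), which encodes SmB/B′ and was the most abundant of the 53 per length (504.4 ± 16.5 CPM per 1000 bases in the siNC libraries, SD, n = 3), had 554.4, 556.7 and 524.7 CPM in the siNC libraries and 456.2, 431.4 and 432.6 CPM in the siYTHDC1 libraries. It fell by 0.31 on the log2 scale (edgeR adjusted p = 7.36e-10), and 20.03% of its exonic bases lie under another gene on the same strand. SNRPD3, which encodes SmD3, the ring partner of SmB, had the largest fall of the ring, with 45.2, 38.1 and 42.8 CPM in the siNC libraries and 31.2, 31.2 and 34.1 CPM in the siYTHDC1 libraries (log2 fold change -0.39 ± 0.07, SE; edgeR adjusted p = 2.05e-05). Of its exonic bases 24.6% lie under other genes, 12.03% on the same strand.

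The other ring members moved alike, apart from SmD2. SNRPD1, SNRPE, SNRPF and SNRPG fell by 0.24, 0.27, 0.23 and 0.26 on the log2 scale. SNRPD2, the second most abundant per length, had 242.7, 237.7 and 236.4 CPM in the siNC libraries and 233.6, 231.3 and 224.8 CPM in the siYTHDC1 libraries, a difference that did not pass the test (log2 fold change -0.06 ± 0.03, SE; edgeR adjusted p = 0.135). The summed level of the 7 genes was 1176 ± 20.3 CPM in the siNC libraries and 995.4 ± 30.5 CPM in the siYTHDC1 libraries (SD, n = 3 each), a difference of -15.3%.

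Genes of the U1 snRNP and the LUC7-like proteins that help it hold weak 5′ splice sites were mixed, with 3 of 6 lower, 1 higher and 2 not called. The shares were 38.2% lower and 33.1% higher among the abundant genes, and 27.1% and 26.3% over all genes tested. SNRNP70 (ENSG00000104852, chr19:49085419-49108605), the U1-70K protein that anchors U1 RNA, had 376.2, 354.3 and 357.6 CPM in the siNC libraries and 342.5, 338.7 and 311.3 CPM in the siYTHDC1 libraries, a fall of 0.13 on the log2 scale (edgeR adjusted p = 0.00154). SNRPC fell by 0.24. SNRPA, which encodes the U1 protein that binds a stem-loop of U1 RNA, had a log2 fold change of 0.08 ± 0.04 (SE) that missed the threshold (edgeR adjusted p = 0.0535) and passed it in 6 of 15 other settings, as a higher level.

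The LUC7-like genes went different ways. LUC7L (ENSG00000007392, chr16:188969-229463) had 37.3, 35.8 and 36.7 CPM in the siNC libraries and 28.9, 27.4 and 27.1 CPM in the siYTHDC1 libraries and fell by 0.40 on the log2 scale (edgeR adjusted p = 7.33e-06). LUC7L3 (ENSG00000108848, chr17:50719544-50756213), the most abundant of them per length, had 384.4, 390.0 and 380.7 CPM against 428.6, 412.4 and 429.3 CPM and rose by 0.14 ± 0.03 (SE; edgeR adjusted p = 0.000127). Neither gene had overlapping groups. LUC7L2 had overlapping groups (log2 fold change -0.05 ± 0.07, SE; edgeR adjusted p = 0.544), and 22.9% of its exonic bases lie under other genes on the same strand, most of them in a readthrough gene.

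Tri-snRNP genes fell in 6 of 9 tested members and rose in 0. By comparison, 27.1% of all genes tested fell and 26.3% rose, and 38.2% and 33.1% of the abundant genes. PRPF6 (ENSG00000101161, chr20:63981135-64033100), which bridges U5 and U4/U6, had 198.8, 196.3 and 190.5 CPM in the siNC libraries and 147.7, 147.6 and 152.6 CPM in the siYTHDC1 libraries, and fell by 0.39 on the log2 scale (edgeR adjusted p = 1.88e-10). EFTUD2, the U5 GTPase, fell by 0.29, DDX23, the helicase that helps release U1, by 0.27, and SNRNP200, the helicase that unwinds U4 from U6, by 0.16. The U4/U6 proteins PRPF3 and PRPF4 fell by 0.19 and 0.18. The uncalled members were SNRNP40 (log2 fold change -0.12 ± 0.05, SE), which passed without siNC replicate 3 or siYTHDC1 replicate 3, SNRNP27 (0.14 ± 0.08) and PRPF31 (0.26 ± 0.45).

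The table does not allow a reading of PRPF8 and PRPF31. PRPF8 (ENSG00000174231, chr17:1650629-1684882), which encodes the scaffold at the heart of the spliceosome that every cell uses, is listed with 3, 0 and 0 counts under siNC and with 0 in each siYTHDC1 library, where 0 counts allow up to 0.0903 CPM. PRPF31 (ENSG00000105618, chr19:54115410-54131719), a U4/U6 protein, had 16 to 19 counts per siNC library against 16 to 23 per siYTHDC1 library. PRPF8 did not pass the filter and PRPF31 was too scarce for its value to be read. The summed level of the tri-snRNP genes was 1191 ± 11.1 CPM in the siNC libraries and 1014 ± 20.9 CPM in the siYTHDC1 libraries (SD, n = 3 each), a difference of -14.9%.

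**Figure D5:**
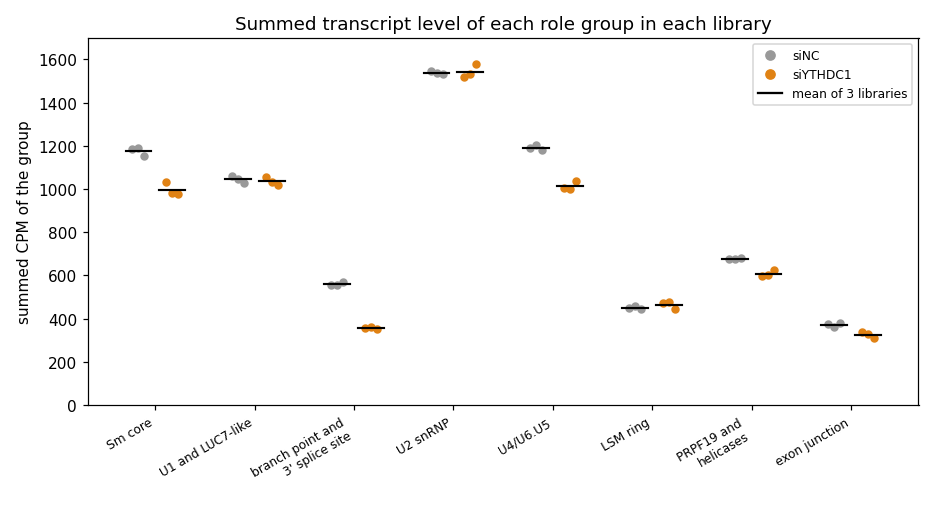
Summed CPM of the genes of each role group in each library (y axis), with siNC in grey, siYTHDC1 in orange and bars at the mean of 3 libraries. The sums for the Sm core, 3′ splice site recognition, the tri-snRNP, the PRPF19 group and the exon junction complex are lower in all 3 siYTHDC1 libraries, while those for U1, U2 and the LSM ring overlap.

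The LSM ring, which binds the end of U6 RNA, was mixed. Of its 6 tested genes 1 rose, 2 fell and 3 were not called. Rises made up 33.1% and falls 38.2% of the abundant genes, and 26.3% and 27.1% of all genes tested. LSM4 (ENSG00000130520, chr19:18306230-18323274) had 170.9, 176.4 and 168.4 CPM in the siNC libraries and 199.4, 206.9 and 199.2 CPM in the siYTHDC1 libraries, whereas LSM5 (ENSG00000106355, chr7:32485332-32495283) had 43.7, 47.1 and 45.9 CPM against 41.1, 35.4 and 39.0 CPM. These ring members moved in opposite directions without overlap, LSM4 by 0.23 ± 0.03 (SE; edgeR adjusted p = 1.39e-06) and LSM5 by -0.24 ± 0.06 (SE; edgeR adjusted p = 0.00148) on the log2 scale. LSM7 fell by 0.15, a call lost without siNC replicate 3 (-0.14; edgeR adjusted p = 0.0578) and without siYTHDC1 replicate 3 (-0.07; edgeR adjusted p = 0.173).

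LSM3, LSM6 and LSM8 had log2 fold changes of -0.06, -0.08 and 0.10, and LSM8 passed without siYTHDC1 replicate 1 (0.15; edgeR adjusted p = 0.0287) but stood at 0.03 without siYTHDC1 replicate 2 (edgeR adjusted p = 0.662). LSM2 (ENSG00000204392, chr6:31797396-31806984) is listed with 2, 0 and 2 counts under siNC against 0, 3 and 0 under siYTHDC1 and did not pass the filter, although the ring needs it.

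The 5 listed genes of the PRPF19 complex and of the helicases that dismantle the spliceosome were called, 4 as lower and 1 as higher. Of the abundant genes 71.3% were called, 38.2% as lower and 33.1% as higher. Over all genes tested 53.4% were called, 27.1% as lower and 26.3% as higher. DHX15 (ENSG00000109606, chr4:24517441-24584550), the helicase that takes apart the intron lariat complex, had 227.4, 225.5 and 221.3 CPM in the siNC libraries and 187.2, 185.3 and 190.9 CPM in the siYTHDC1 libraries and fell by 0.26 on the log2 scale (edgeR adjusted p = 8.72e-08). CRNKL1 (ENSG00000101343, chr20:20034368-20056046), a scaffold of the PRPF19 complex, had 41.9, 39.0 and 43.0 CPM against 47.3, 48.1 and 49.5 CPM and rose by 0.23 ± 0.06 (SE; edgeR adjusted p = 0.00129). Both had groups that did not overlap. CDC5L, a core subunit of the complex, fell by 0.25, and DHX8, the helicase that releases the spliced mRNA, by 0.17. PRPF19, the ubiquitin ligase that names the complex, fell by 0.10, a call lost without siNC replicate 3, siYTHDC1 replicate 1 or siYTHDC1 replicate 2 (edgeR adjusted p from 0.0543 to 0.0955) and without siNC replicate 2 and siYTHDC1 replicate 1 together (edgeR adjusted p = 0.108).

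Other genes of the same machinery were taken from a list of 83 further spliceosome and snRNP genes, of which 80 were tested. Of these 37 fell (46.3%) and 16 rose, with a median log2 fold change of -0.09, where 27.1% of all genes tested fell and 26.3% rose, and 38.2% of the abundant genes fell and 33.1% rose. Factors that assemble and import snRNPs fell in 9 of 15 and rose in 2, with a median of -0.22. WDR77, the partner of the arginine methyltransferase that modifies Sm proteins before assembly, had 36.9, 33.8 and 36.5 CPM in the siNC libraries and 17.2, 19.4 and 19.3 CPM in the siYTHDC1 libraries and fell by 0.94 on the log2 scale (edgeR adjusted p = 1.92e-11). Of its exonic bases 36.5% lie under other genes, and most of that overlap is on the same strand.

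Genes of the minor spliceosome, which removes a rare class of introns, fell in 3 of 10 and rose in 3, which is near the 27.1% lower and 26.3% higher of all genes tested. SNRNP35, a protein of its U11/U12 snRNP and the counterpart of SNRNP70, had 23.4, 22.1 and 23.2 CPM in the siNC libraries and 11.9, 11.4 and 9.70 CPM in the siYTHDC1 libraries, a fall of 1.06 on the log2 scale (edgeR adjusted p = 9.07e-11). SNRNP35 has 40.1% of its exonic bases under another gene, on the other strand.

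Among 55 tested genes of the major spliceosome outside the 53, 25 fell and 11 rose. Of these 55 genes 65.45% were called, against 71.3% of the abundant genes and 53.4% of all genes tested. Falls made up 38.2% and rises 33.1% of the abundant genes, and 27.1% and 26.3% of all genes tested. The largest changes among the 55 were in PUF60, a U2AF2-related protein, and WBP11. PUF60 had 41.1, 35.9 and 21.8 CPM in the siNC libraries and 12.7, 21.1 and 10.2 CPM in the siYTHDC1 libraries, a wide spread with groups that nearly touch (log2 fold change -1.17 ± 0.18, SE; edgeR adjusted p = 2.88e-06). WBP11, which interacts with splicing factors, rose from 55.3 ± 0.703 to 91.3 ± 1.44 CPM (± SD of 3 libraries a group; 0.72 ± 0.04, SE; edgeR adjusted p = 1.17e-13). PHF5A, the SF3B subunit that is not among the 53, rose from 29.7 ± 2.24 to 45.1 ± 2.26 CPM (± SD of 3 libraries a group; 0.60 ± 0.07, SE; edgeR adjusted p = 1.03e-08), and PLRG1, a PRPF19 complex protein, rose by 0.42 ± 0.05 (SE; edgeR adjusted p = 1.37e-07).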

How the data were processed

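The authors deposited raw read counts per Ensembl gene, 1 column per library; the reads were placed on hg38, per the submitters' processing notes, with aligner, counter, annotation and strand setting not given in the sources used here. Libraries were made with a directional kit, per the labels' protocols. Columns were matched to sample titles, with 0 columns unused. A table pairing Ensembl identifiers with names gave the symbols; positions, lengths, exon overlaps and shared 75-base words came from GENCODE release 29, on the same build. Differential expression was tested with the edgeR 4.0.16 quasi-likelihood test (R 4.3.3; TMM scaling, default low-count filter, group as the only term), with Benjamini-Hochberg adjustment over 17372 genes. The fit was also run on simulated counts with the same dispersion for every gene and few changed genes, a simpler setting than these data. CPM are counts per 1000000 TMM-scaled counts. Per-length levels use the median length of protein-coding transcripts. Replicates differed by more than sampling noise (chi-square per degree of freedom 3.66 to 5.54). Named genes were, in each role group, the largest called rise and fall with a mean of at least 1 CPM, calls of at least 0.5, genes failing the filter and 8 chosen members; of the other spliceosome genes, the 3 largest rises and falls. SNRPA1, SNRPB2, SF3B3, SNRPD2, PRPF31 and the pairs of ratios were picked for fuller description after their values were seen. Members and lists were chosen with earlier results of these data known. Other settings used DESeq2 1.42.0, limma 3.58.1, other scalings and filters, a replicate block and libraries left out. The limit that a count of 0 allows covers counting error only; SDs and SEs include the spread between libraries.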

Additional observations from a re-analysis of the deposited data

How the results depend on the processing

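Counts of calls stayed within 1.5 times of those reported under each other scaling, filter and tool and without each library in turn. Among the core genes those fits called 8 to 10 higher and 27 to 31 lower, and the median log2 fold change ran from -0.17 to -0.15. Requiring a change of at least 0.5 on the log2 scale, by construction, left 2097 higher and 1680 lower of all genes, 0 and 4 of the core genes, and 2 and 7 of the other spliceosome and snRNP genes. Leaving out siNC replicate 2 and siYTHDC1 replicate 1, an alternative chosen after seeing the data, left 10 rises of that last list with fewer samples, and 8 higher and 28 lower core genes. With the replicate block 9 core genes were higher and 31 lower. Same-numbered libraries did not deviate together (r of -0.02 to 0.0041), which cannot show whether the numbers pair them. Restricting the core list to 45 genes with little shared sequence, also chosen later, left 8 higher and 28 lower of 43 tested. RBM8A, SNRPB and SNRPD3 are outside that list, so it does not bear on their falls. Of 39 called core genes 33 kept their call in all 15 other settings; EIF4A3, SF3B1, LSM7, PRPF19, MAGOH and MAGOHB did not. Uncalled values changed sign for LUC7L2 (-0.0863 to 0.0058 without 1 library) and for U2AF1 (-0.11 to 0.18 without 1 library; -0.0981 without siNC replicate 2 and siYTHDC1 replicate 1 together); the cause was not tested. Counts are per gene, so isoforms and splicing were not measured.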

Other observations

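The core genes that the table lists near 0 differ in their surroundings. Of the protein-coding genes within 500 kb of LSM2, 68 of 71 had a mean under 1 CPM, as did 25 of 33 around PRPF31, 9 of 22 around PRPF8 and 2 of 9 around U2AF1, where 37.4% of all 19862 protein-coding genes were under that level. Around YTHDC1 it was 7 of 8. DDX39B, DHX16 and CWC25, the untested genes of the other spliceosome list, had 0 to 5 counts in every library. What these rows mean for the transcripts was not tested.

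Across the 51 tested core genes, Spearman's rho of the log2 fold change was -0.22 with the siNC level in CPM and 0.03 with transcript length, which is a description over genes that share the same 6 libraries.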
